A study of Rattus norvegicus with 6 samples.

Results

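The 10 genes described here encode the 5 subunits of the transcription factor NF-κB (Nfkb1, Nfkb2, Rel, Rela and Relb) and 5 of its inhibitors (Nfkbia, Nfkbib, Nfkbie, Nfkbiz and Tnfaip3). They were found by gene name in a table of counts for 34156 genes, where each of the 10 had 1 row. The libraries came from rat fibroblast-like synoviocytes (RA-FLS), the cells of the joint lining that carry much of the inflammation of rheumatoid arthritis, bought as a cell stock and labelled as wild type with rheumatoid arthritis as the disease state. The TNF-α group (3 libraries) was given 10 ng/mL of the inflammatory cytokine TNF-α, and the TNF-α+EMO group (3 libraries) was given 10 ng/mL TNF-α together with 80 μmol/L EMO (emodin, an anthraquinone of rhubarb). The labels give day 5 for all 6 libraries, whereas the study's methods describe a shorter incubation. Both groups received TNF-α, so each difference is between TNF-α with EMO and TNF-α alone, and untreated cells were not analysed here.

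NF-κB acts as a pair of subunits held in the cytoplasm by IκB proteins. TNF-α, through its receptor, activates the IκB kinase (IKK) complex, which marks IκB for destruction and frees the pair to enter the nucleus. Among the genes it then switches on are those of its own inhibitors, a classical negative feedback, and in synoviocytes it is known for driving chemokine, cytokine and protease genes.

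The promoters of these genes were examined for the κB consensus, the 10-base motif that NF-κB pairs bind, because feedback genes are known to carry it. RefSeq promoter windows of the rat build GRCr8, each from 250 bases before to 50 bases after an annotated start, matched 9 of the 10 genes by symbol, and Relb had no match by symbol. The motif was searched on both strands, and overlapping matches were counted as 1 site. It was found in 7 of the 9 windows, at 10 sites in all, whereas 7.51% of all 33469 windows held it. That share also covers windows of genes not tested here. Among tested genes with a window, 962 held a match and 8215 did not. The share was not matched for G and C content, which was 57% to 77.3% in the 9 windows. The windows of Rela and Nfkbib held no site. In 3 of the 9 genes (Rela, Nfkbib and Nfkbie) the annotated start of the window was also the outermost base of the gene. In the others, which all held a site, the gene has a start further out. Sequence outside the windows was not searched, so the lack of a site in Rela and Nfkbib holds only for these windows.

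The sites are printed on the strand of the gene in 30 bases each, with the κB consensus in capitals.
Nfkbia (chr6:78597084-78597113, minus strand): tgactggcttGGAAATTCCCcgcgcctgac
Nfkbie (chr9:22948017-22948046, minus strand): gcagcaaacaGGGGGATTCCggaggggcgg
Nfkbiz (chr11:58251698-58251727, plus strand): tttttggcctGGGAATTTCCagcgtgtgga
Tnfaip3, outer site (chr1:15544130-15544159, minus strand): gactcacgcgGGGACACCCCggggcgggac
Tnfaip3, middle site (chr1:15544027-15544056, minus strand): tcacgtgactGGAAAGTCCCtcggaaatcc
Tnfaip3, inner site (chr1:15544015-15544044, minus strand): aaagtccctcGGAAATCCCCctgtggcgaa
Nfkb1 (chr2:226805440-226805469, minus strand): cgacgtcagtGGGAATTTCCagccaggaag
Nfkb2 (chr1:255108344-255108373, plus strand): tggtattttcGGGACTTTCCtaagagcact
Rel, outer site (chr14:101922137-101922166, minus strand): cgcgcccccGGGAGCTCCCCgcgcgagcgc
Rel, inner site (chr14:101922000-101922029, minus strand): gtaggcagcGGGAAATCCCCccccgttccg

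The 100 bases before the start of Nfkbib and of Rela are shown for comparison, with nothing in capitals because no match was found in them.
Nfkbib (chr1:93181388-93181487, minus strand): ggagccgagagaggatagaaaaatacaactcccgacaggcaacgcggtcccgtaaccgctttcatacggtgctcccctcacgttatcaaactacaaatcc
Rela (chr1:212354236-212354335, plus strand): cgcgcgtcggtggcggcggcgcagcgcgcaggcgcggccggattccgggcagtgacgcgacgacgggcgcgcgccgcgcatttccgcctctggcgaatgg

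A match is a description of the letters and not a measured binding site. The sites of Nfkbia, Nfkbiz and Nfkb2 began 31, 13 and 20 bases before the start, and that of Nfkb1 began at base 4 of the transcribed part. Tnfaip3 had the most sites, 3, and Nfkbie had 1 site that began 164 bases before the start.

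**Figure D1:**
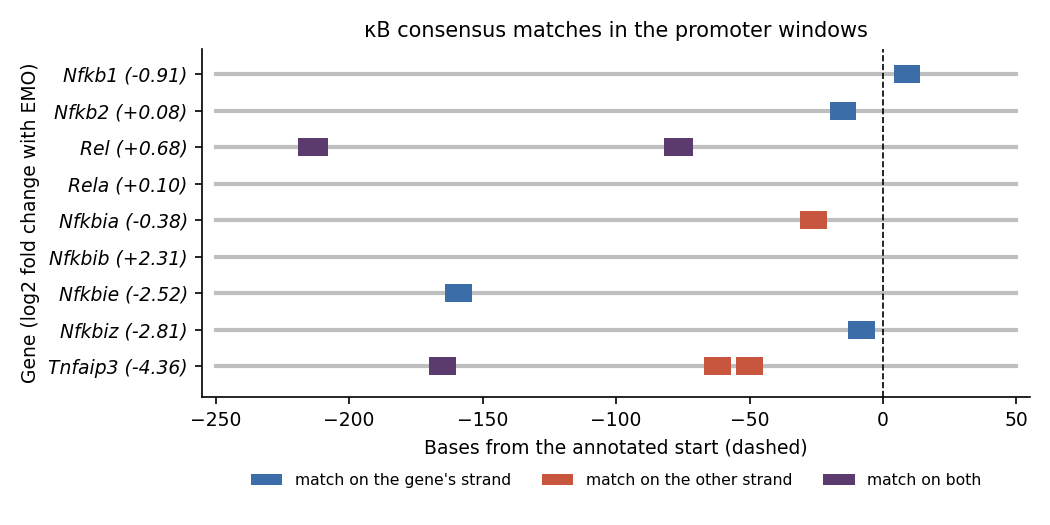
Positions of κB consensus matches (blocks, coloured by the strand of the match) in the promoter windows of 9 genes, in bases from the annotated start, with the log2 fold change of each gene with EMO beside its name. The windows of Rela and Nfkbib hold no block, and that of Tnfaip3 holds 3.

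The libraries held 16813322 to 17794455 counts on genes, and 13614 genes passed the filter (10 counts or more in 3 or more libraries) and entered the test, all 10 NF-κB genes among them. Normalized counts are counts scaled by edgeR's TMM method, and a gene was called at an adjusted p under 0.05 in the quasi-likelihood test of edgeR, adjusted over the 13614 genes by Benjamini-Hochberg. The groups differed widely, since 80.9% of all genes tested were called, 39.4% as higher and 41.4% as lower with EMO. Replicates 1 and 3 of TNF-α+EMO stood furthest apart within a group, with a median absolute log2 difference per gene of 0.230, against 0.103 to 0.108 between TNF-α libraries. The fibroblast markers went partly against the label, as Prg4 and Thy1 had too few counts to test, Dcn was near 0 with TNF-α alone, and the 9 markers in the table summed to 11665 to 12836 CPM (counts scaled to a common library total) with TNF-α and to 2047 to 2202 with EMO. Of the 9, 6 were called lower with EMO and 1, Dcn, was called higher (log2 fold change 4.022). Of the 6, Col3a1 had a log2 fold change of -8.764, Pdgfra of -6.59 and Cdh11 of -6.198. Those of Col1a1, Pdgfrb and Vim were -4.906, -4.447 and -0.924. The part of the fibroblast markers in the NF-κB results was not tested. Markers of other cell types were low apart from Krt8, Cd14 and Cd68. The macrophage list summed to 70.2 to 76.3 CPM with TNF-α and to 42.8 to 46.8 with EMO, with C1qa, C1qb and Tyrobp at 0 in every library. The endothelial list reached at most 4.45 CPM and the lymphocyte list at most 0.228 CPM. The epithelial list summed to 579 to 629 CPM with TNF-α and to 114 to 134 with EMO, nearly all from Krt8, and Epcam was at 0. In bulk RNA, fewer cells of a type and less RNA per cell cannot be told apart.

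With EMO, 4 of the 5 inhibitors changed by more than any of the 5 subunits did. Of the 5 inhibitors, 4 fell (Tnfaip3, Nfkbiz, Nfkbie and, least, Nfkbia) and Nfkbib rose. Of the 5 subunits, Nfkb1 and Relb fell, Rel rose from a low level, and Rela and Nfkb2 did not pass the test. In all, 8 of the 10 genes were called, 6 lower and 2 higher, which is close to the 80.9% of all genes tested. With an absolute log2 fold change over 1 as well, 4 of the 10 were called, all of them inhibitors, against 47.3% of all genes tested. Of the 4, 1 was higher (background 19.5%) and 3 were lower (background 27.8%). As a median, the log2 fold change was 0.08 over the subunits, -2.52 over the inhibitors and -0.01 over all genes tested. The libraries of the groups did not overlap in 9 of the 10 genes, where 82.9% of all genes tested showed no overlap. They lay higher with EMO in 3 of the 10 (background 40.3%) and lower in 6 (background 42.5%). For 1 gene alone, exact permutation of 3 and 3 libraries gives no p under 0.1, so the p-values rest on the spread that edgeR shares across genes.

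**Figure D2:**
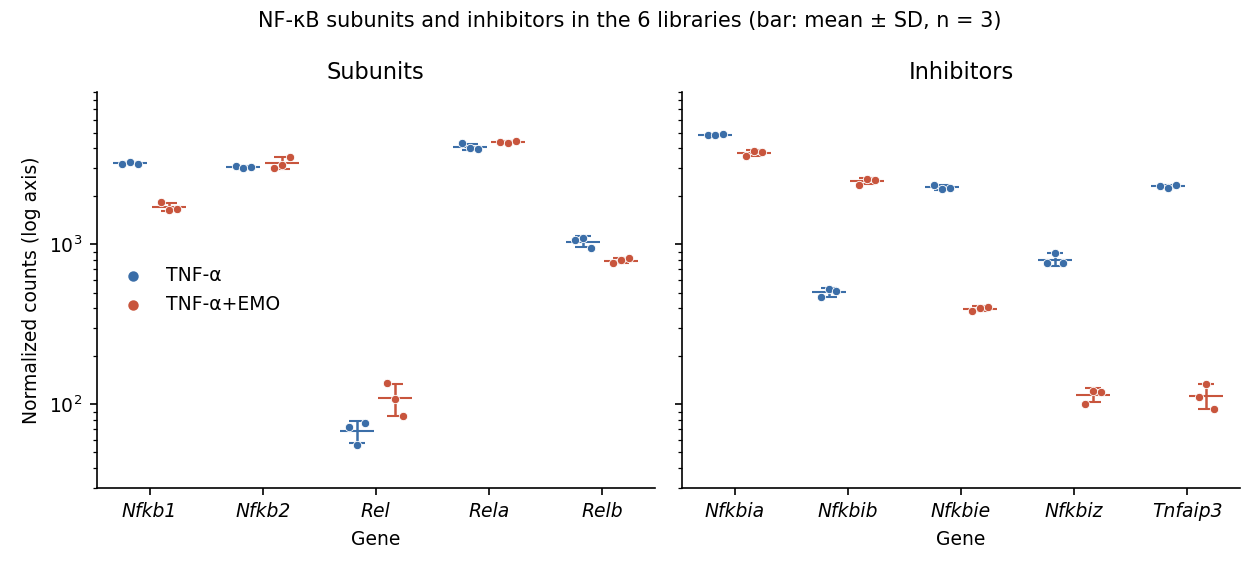
Normalized counts (log axis) of the 5 subunits and the 5 inhibitors in the 3 TNF-α and the 3 TNF-α+EMO libraries, where points are libraries and bars are the mean ± SD. Tnfaip3, Nfkbiz and Nfkbie lie far lower and Nfkbib far higher with EMO, and the points of Nfkb2 overlap.

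Tnfaip3 encodes A20, a ubiquitin-editing enzyme that shuts off signalling from the TNF receptor. In the deposited coordinates, whose build is Rnor_6.0 according to the submitters' processing notes, it lies on chromosome 1 from 14402913 to 14412807. Normalized counts in the 3 TNF-α libraries were 2327, 2255 and 2367, and in the 3 EMO libraries 111, 134 and 93.7. Every library with EMO was thus far below every library without it, although with EMO the 3 libraries differed among themselves by a coefficient of variation of 17.9%, against 2.46% without. Tnfaip3 fell by 4.36 log2 units (standard error, SE, 0.11, adjusted p = 5.4e-11 by edgeR), or 20.5-fold, with a 95% interval of 17.3-fold to 24.3-fold.

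Nfkbiz encodes IκBζ, an atypical nuclear IκB protein that also helps NF-κB to switch on a subset of late genes. It lies on chromosome 11 from 47243342 to 47271487. Its normalized counts were 761, 890 and 762 with TNF-α and 101, 122 and 120 with EMO. The groups did not overlap, and the spread was alike in both (coefficients of variation of 9.25% and 10.1%). Nfkbiz fell by 2.81 log2 units (SE 0.11, adjusted p = 1.6e-09 by edgeR), or 7.03-fold (95% interval 5.91-fold to 8.36-fold).

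Nfkbie encodes IκBε, an IκB protein that is itself induced by NF-κB and acts later than IκBα in the feedback. It lies on chromosome 9 from 17828408 to 17835240. With TNF-α alone the libraries held 2371, 2223 and 2241 normalized counts, and with EMO 384, 399 and 408. The groups were far apart, and each was tight, with coefficients of variation of 3.54% and 3.15%. Nfkbie fell by 2.52 log2 units (SE 0.07, adjusted p = 8.7e-11 by edgeR), or 5.74-fold (95% interval 5.16-fold to 6.38-fold).

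Nfkbia encodes IκBα, the fastest and best known of the feedback inhibitors. It lies on chromosome 6 from 76267228 to 76270457. Its normalized counts were 4834, 4825 and 4918 with TNF-α and 3578, 3844 and 3782 with EMO. The groups did not overlap, but the difference was small beside those of Nfkbie, Nfkbiz and Tnfaip3. Nfkbia fell by 0.38 log2 units (SE 0.06, adjusted p = 7.7e-05 by edgeR), or 1.30-fold (95% interval 1.19-fold to 1.42-fold).

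Nfkbib encodes IκBβ, the IκB protein that is not a classical target of NF-κB and that keeps NF-κB in the cytoplasm over a longer time. It lies on chromosome 1 from 86941074 to 86948845. Normalized counts in the 3 TNF-α libraries were 468, 530 and 508, and in the 3 EMO libraries 2367, 2569 and 2516. It was the 1 inhibitor with every EMO library above every TNF-α library. Nfkbib rose by 2.31 log2 units (SE 0.07, adjusted p = 2.5e-10 by edgeR), or 4.95-fold (95% interval 4.42-fold to 5.53-fold). Nfkbib was also the 1 inhibitor whose promoter window held no κB consensus. Rela, whose window held none either, did not pass the test, and Rel, with 2 sites, was called higher. Whether the lack of a match goes with a direction was not tested.

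Among the subunits, Nfkb1 encodes p105, which is cut to p50, the usual partner of p65. It lies on chromosome 2 from 240773456 to 240866689. Its normalized counts were 3211, 3267 and 3187 with TNF-α and 1835, 1634 and 1678 with EMO. All 3 libraries with EMO were lower, and Nfkb1 fell by 0.91 log2 units (SE 0.06, adjusted p = 1.5e-07 by edgeR), or 1.88-fold. This was the largest decrease among the subunits, and its 95% interval ran from 1.70-fold to 2.07-fold.

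Relb encodes the partner of p52 in the non-canonical pathway and lies on chromosome 1 from 80517411 to 80544825. With TNF-α alone the libraries held 1071, 1105 and 948 normalized counts, and with EMO 764, 794 and 823. The groups did not overlap, and Relb fell by 0.39 log2 units (SE 0.08, adjusted p = 9.9e-04 by edgeR), or 1.31-fold (95% interval 1.16-fold to 1.49-fold).

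Rela encodes p65, the subunit that activates transcription in the canonical pair, and lies on chromosome 1 from 220992770 to 221003249. Its normalized counts were 4290, 4043 and 3934 with TNF-α and 4371, 4328 and 4443 with EMO. The libraries with EMO were all above those without, but only just, and the log2 fold change of 0.10 (SE 0.06) did not pass the test (adjusted p = 0.13 by edgeR). The 95% interval of the fold ran from 0.981 to 1.17, so changes larger than these bounds lie outside it. Scaled by library totals alone, the log2 fold change of Rela was -0.01.

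Nfkb2 encodes p100, which is both a precursor of p52 and an inhibitor. It lies on chromosome 1 from 266053002 to 266059256. Normalized counts in the 3 TNF-α libraries were 3110, 2992 and 3044, and in the 3 EMO libraries 2992, 3156 and 3541. The groups overlapped, and replicate 3 with EMO was the highest library. The log2 fold change was 0.08 (SE 0.07, adjusted p = 0.29 by edgeR), with a 95% interval of the fold from 0.951 to 1.18, and it was -0.03 when scaled by library totals alone.

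Rel encodes c-Rel, a subunit best known from lymphocytes, and lies on chromosome 14 from 108491069 to 108509892. It had the fewest counts of the 10 genes, 74, 57 and 78 raw counts with TNF-α alone and 131, 106 and 83 with EMO. Its normalized counts were 72.6, 55.6 and 76.0 with TNF-α and 135, 109 and 84.6 with EMO. The lowest library with EMO was close to the highest without, and the spread within each group was the widest of the 10 genes (coefficients of variation of 16.1% and 23.1%). Rel rose by 0.68 log2 units (SE 0.23, adjusted p = 0.017 by edgeR), or 1.61-fold (95% interval 1.13-fold to 2.28-fold). The call rests on single libraries, since the adjusted p was 0.069 without TNF-α replicate 2 and 0.076 without TNF-α+EMO replicate 1.

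**Figure D3:**
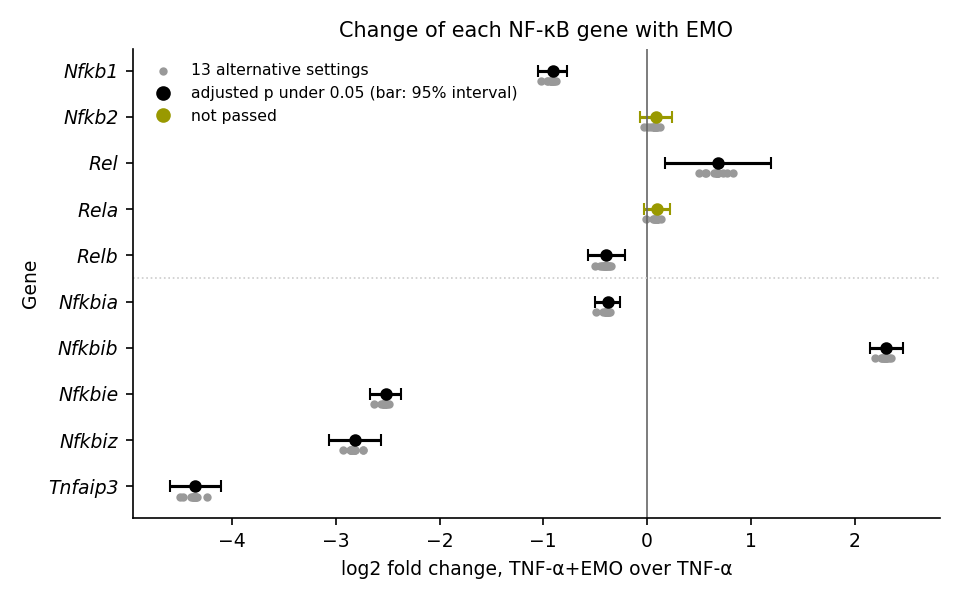
The log2 fold change of each gene, TNF-α+EMO over TNF-α, with its 95% interval from edgeR (black, adjusted p under 0.05; olive, not passed) and the value under each of 13 alternative settings (grey). The 5 inhibitors run from -4.36 to 2.31 and the 5 subunits from -0.91 to 0.68.

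Levels of different genes were compared per length, as TMM-scaled CPM per kb of the deposited gene length (CPM per kb). In the TNF-α group, Nfkbia had the highest level of the 10 genes with 181 ± 1.90 CPM per kb (SD, n = 3). It was followed by Rela with 97.4 ± 4.35, Nfkbie with 82.8 ± 2.93, Nfkb2 with 57.8 ± 1.13 and Tnfaip3 with 55.1 ± 1.36 CPM per kb. Then came Nfkb1 with 48.5 ± 0.619, Relb with 31.1 ± 2.47, Nfkbib with 20.9 ± 1.31, Nfkbiz with 11.6 ± 1.07 and Rel with 2.24 ± 0.359 CPM per kb. No neighbours in this order overlapped over the 3 libraries, though the highest Tnfaip3 library (56.4) and the lowest Nfkb2 library (56.7) were close.

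With EMO, Nfkbia was first with 139 ± 5.18 CPM per kb (SD, n = 3) and Rela had 104 ± 1.38. Nfkbib, at rank 8 with TNF-α alone, had 103 ± 4.37 CPM per kb, and its libraries overlapped with those of Rela. The order of Rela and Nfkbib rests on TNF-α+EMO replicate 1, without which Nfkbib came before Rela. Nfkbie moved from rank 3 to rank 7 with 14.4 ± 0.455 CPM per kb, and Tnfaip3 moved from rank 5 to rank 9 with 2.69 ± 0.481. Rel, at 3.60 ± 0.832 CPM per kb, came just above Tnfaip3, and the libraries of these neighbours overlapped, while Nfkbiz was last with 1.64 ± 0.166. The other neighbours in the order did not overlap.

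Expressed as shares of the summed level per kb of the 5 inhibitors, which do not depend on the scaling between libraries, the make-up of the inhibitors changed while the place of Nfkbia did not. Nfkbia held 51.1%, 51.5% and 51.9% of the sum with TNF-α alone and 53.3%, 53.1% and 53.2% with EMO. Nfkbib went from 5.95% ± 0.394 to 39.6% ± 0.122 of the inhibitor sum (SD, n = 3 each). Nfkbie went from 23.6% ± 0.793 to 5.53% ± 0.127, and Tnfaip3 from 15.7% ± 0.295 to 1.03% ± 0.172. Within these libraries the second largest share thus passed from Nfkbie to Nfkbib.

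The ratio of Nfkbib to Nfkbie, both per kb, was 0.226, 0.273 and 0.260 with TNF-α alone and 7.07, 7.38 and 7.06 with EMO. Summed over the 3 classical IκB genes (Nfkbia, Nfkbib and Nfkbie), the level was 284 ± 1.82 CPM per kb with TNF-α and 257 ± 9.92 with EMO, so that the sum differed much less than its parts. Per Rela transcript, these 3 genes together gave 2.92 ± 0.127 with TNF-α and 2.46 ± 0.103 with EMO, and the libraries did not overlap. These sums over the genes were described and not tested.

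Among the subunits, Rela held 41.1% ± 0.715 of the summed level per kb with TNF-α and 47.7% ± 0.712 with EMO (SD, n = 3 each). The share of Nfkb1 was 20.5% ± 0.562 with TNF-α and 11.8% ± 0.864 with EMO, and that of Nfkb2 was 24.4% ± 0.601 and 28.0% ± 1.74. The ratio of Nfkb1 to Rela, whose products form the canonical pair, was 0.473, 0.511 and 0.512 with TNF-α alone and 0.265, 0.239 and 0.239 with EMO. The summed subunit level was 237 ± 6.85 CPM per kb with TNF-α and 219 ± 5.97 with EMO.

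**Figure D4:**
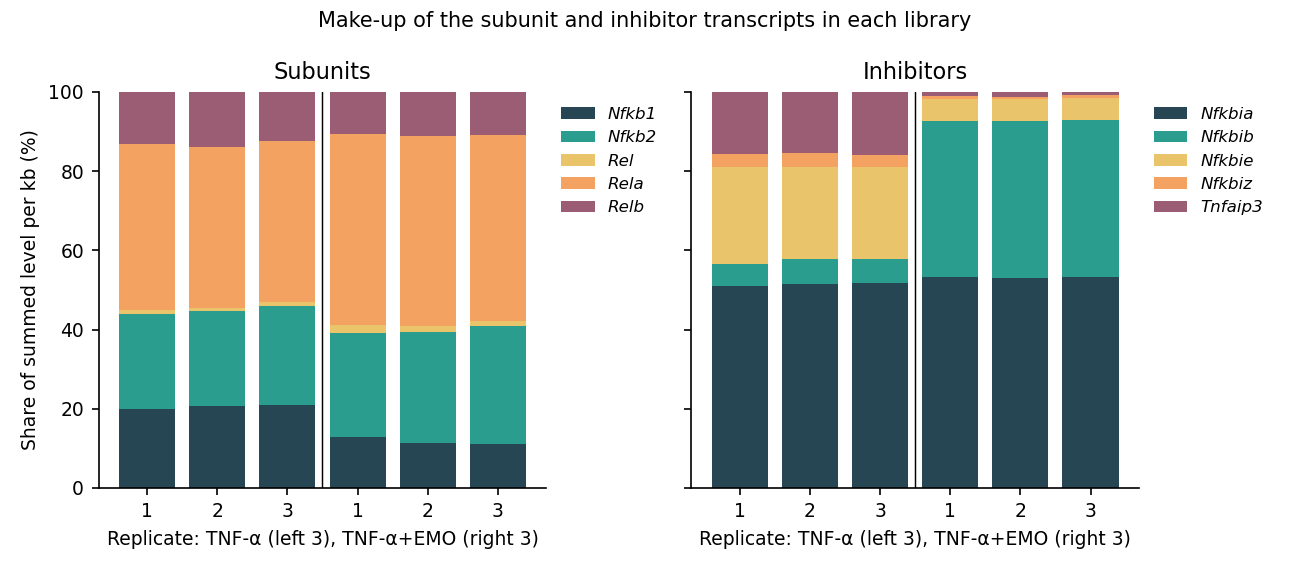
Share (%) of each gene in the summed level per kb of the 5 subunits (left) and of the 5 inhibitors (right), with 1 bar per library. In the inhibitors, Nfkbib takes 39.5% to 39.7% in the 3 TNF-α+EMO libraries and 5.54% to 6.32% in the 3 TNF-α libraries, while the share of Nfkbia stays between 51.1% and 53.3%.

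For each gene, the named gene with the most similar pattern was sought among 9389 other genes with a mean of at least 100 counts, by the root mean square difference of centred log2 normalized counts over the 6 libraries. With 2 groups of 3 this measure reflects mainly the difference between the groups. The closest gene to Tnfaip3 was Cdkn3 (difference 0.07), to Nfkbiz Nlrp1a (0.06), to Nfkbie Cabin1 (0.03) and to Nfkbib Slc25a33 (0.05). For Nfkbia it was Parp1 (0.02), for Nfkb1 Klhl7 (0.02), for Rela Gtf3c2 (0.02), for Nfkb2 Cc2d1a (0.02), for Relb Prpsap2 (0.04) and for Rel Trpc1 (0.10). Within a difference of 0.1 there were 3 genes for Tnfaip3, 13 for Nfkbiz, 37 for Nfkbib, 50 for Nfkbie, 191 for Relb and 246 to 473 for Nfkb1, Nfkb2, Nfkbia and Rela. For Rel, whose counts were low, there were 0.

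The rest of the pathway was described by 45 genes from the receptor to the nucleus, all of which had enough counts to be tested. Of these, 33 were called, 16 higher and 17 lower with EMO, or 73.3% against the 80.9% of all genes tested, with a median log2 fold change of 0.20. Over all genes tested, 39.4% were higher and 41.4% lower, and the counts of the 4 groups that follow are to be read against these shares. At the receptor and its adaptors, 6 of 11 genes fell and 3 rose (81.8% called, against 80.9% of all genes tested). Tnfrsf1a, the main TNF receptor, had 2756 ± 85.1 normalized counts with TNF-α and 1639 ± 77.3 with EMO (SD, n = 3 each) and fell by 0.75 log2 units (adjusted p = 6.6e-07 by edgeR). Tnfrsf1b, the second receptor, fell by 1.69 log2 units (SE 0.10). Among the adaptors and ubiquitin ligases bound to the receptor, Traf1 fell by 1.12 log2 units, Traf3 by 1.42 and Birc3 by 1.00, each with a standard error of 0.07 to 0.11. Birc2, the close relative of Birc3, rose by 0.95 log2 units (SE 0.07), and Traf2 had a value of -0.08 (SE 0.09), which did not pass.

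Among the 11 kinases, 3 rose, 3 fell and 5 did not pass (54.5% called, against 80.9% of all genes tested). In the IKK complex, Chuk (IKKα) rose by 0.77 log2 units (SE 0.09, adjusted p = 1.6e-05 by edgeR) and Ikbkg, the scaffold NEMO, by 0.92 (SE 0.13). For Ikbkb (IKKβ), the log2 fold change was 0.22 (SE 0.09) and its adjusted p of 0.044 stayed under the threshold in only 2 of 13 alternatives. The IKK-related kinase Ikbke had 1994 ± 120 normalized counts with TNF-α and 147 ± 21.4 with EMO, and it fell by 3.76 log2 units (SE 0.11, adjusted p = 1.2e-10 by edgeR), whereas its relative Tbk1 fell by 0.29 (SE 0.07). Map3k14 (NIK), the kinase of the non-canonical pathway, had a log2 fold change of 0.16 (SE 0.12) and did not pass.

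Of the 13 genes of the ubiquitin machinery and its partners, 7 rose and 4 fell (84.6% called, against 80.9% of all genes tested). Tnip1, which binds A20 and assists it, fell by 1.63 log2 units (SE 0.06), and Zc3h12a, an RNase that destroys inflammatory mRNAs, fell by 1.94 (SE 0.10). Tnip2, another partner of A20, rose by 2.55 log2 units (SE 0.11), from 210 ± 14.3 to 1234 ± 169 normalized counts. Tnip3, of the same family and named after its values were seen, fell from 5902 ± 174 to 305 ± 45.4 normalized counts, by 4.28 log2 units (adjusted p = 3.4e-11 by edgeR). The 3 Tnip genes were thus divided in direction, as the IκB genes were. The other genes of this group that rose are named after their values were seen. Tax1bp1, an adaptor of A20, rose by 1.53 log2 units (SE 0.10), from 7360 ± 227 to 21285 ± 3056 normalized counts. Rbck1 (HOIL-1) and Rnf31 (HOIP), subunits of the ligase that builds linear ubiquitin chains, rose by 1.09 and 0.56 log2 units. Otulin, which removes such chains, rose by 0.50 log2 units, and the ubiquitin ligase gene Itch by 0.47. Btrc, which encodes the protein that marks phosphorylated IκB for ubiquitination, was called at 0.20 log2 units (adjusted p = 0.037 by edgeR), a call kept in 6 of 13 alternatives. Cyld, a deubiquitinase that restrains the pathway, fell by 0.77 log2 units (SE 0.12).

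Of the 10 other regulators, 3 were called higher and 4 lower (70.0% called, against 80.9% of all genes tested). Of these calls, Commd1, with a log2 fold change of 0.25 and groups that overlapped, kept its call in 2 of 13 alternatives, and Rps6ka5, with -0.28, in 6 of 13 (both named after their values were seen). Bcl3, an IκB family member that works in the nucleus with p50 and p52, fell by 2.45 log2 units (SE 0.16, adjusted p = 9.7e-08 by edgeR), from 336 ± 43.0 to 61.5 ± 9.16 normalized counts. Nfkbid, the other atypical nuclear IκB, had 23.1 ± 3.79 and 38.9 ± 13.1 normalized counts and did not pass (adjusted p = 0.056 by edgeR). Without TNF-α+EMO replicate 1 its adjusted p was 0.010. Nkiras2 (κB-Ras), named after its values were seen and known to bind IκBβ and slow its breakdown, rose by 1.94 log2 units (SE 0.09), from 562 ± 44.7 to 2156 ± 210 normalized counts. Nkiras1, the other κB-Ras gene, had a log2 fold change of 0.20 (SE 0.17), did not pass (adjusted p = 0.29 by edgeR) and had groups that overlapped.

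Of 36 genes listed as targets of NF-κB in cells given TNF, 32 were tested, 3 had too few counts and 1 was not analysed here. With EMO 25 fell, against 41.4% called lower among all genes tested, 6 were called higher, against 39.4%, and 1 did not pass. The median log2 fold change of the 32 was -2.41, and in 6 of them all 3 TNF-α+EMO libraries held 3 counts or fewer, which is the floor used here. Even at their lower bounds these 6 lie below the median, so the bounds could not move it. The chemokine gene Ccl2 had 29588 ± 450 normalized counts with TNF-α and 1410 ± 62.6 with EMO (SD, n = 3 each), a decrease of 4.39 log2 units. Cxcl1 fell by 3.09 log2 units, and Ccl20 was at least 463-fold lower, against a floor of 3 counts per library. Csf1, a macrophage growth factor, fell by 3.29 log2 units, and Sod2, a mitochondrial antioxidant enzyme, by 2.34. Larger decreases are named after their values were seen. Vcam1 fell by 8.02 log2 units, Ccl7 by 7.81, Mmp9 by 7.41, Cxcl10 by 5.39 and Ptgs2 by 5.24. Against the floor, C3 was at least 5814-fold lower.

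Decreases smaller than these were measured in the targets that follow. The transcription factor gene Irf1 fell by 1.38 log2 units, Tnfaip2 by 1.14, Tnfaip6 by 1.92, Gadd45b by 2.12 and the early response gene Ier3 by 0.76, each with a standard error of 0.06 to 0.31. Mmp3, a protease that degrades cartilage matrix, fell by 0.48 log2 units (SE 0.12, adjusted p = 0.0065 by edgeR), but the adjusted p was 0.11 without TNF-α+EMO replicate 3. Bcl2a1, a survival gene, had too few counts to test.

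The 6 targets called higher are all named here, after their values were seen. Mmp13, a collagenase, rose by 2.09 log2 units (SE 0.11), from 187 ± 15.6 to 798 ± 99.2 normalized counts (SD, n = 3 each). The cytokine gene Lif rose by 1.89 log2 units (SE 0.10) and the survival gene Bcl2l1 by 1.59 (SE 0.07). Il6, a central cytokine of arthritis, rose by 1.23 log2 units (SE 0.20, adjusted p = 1.5e-04 by edgeR), from 71.6 ± 16.6 to 168 ± 8.21 normalized counts. Cd40, a receptor of the TNF receptor family, rose by 1.34 log2 units (SE 0.40) from the low level of 10.7 ± 4.23 normalized counts. Icam1, an adhesion molecule, was called at 0.13 log2 units (adjusted p = 0.046 by edgeR), and this call was kept in 2 of 13 alternatives. Most listed targets were lower with EMO, as were 4 of the 5 inhibitors. Among the subunit mRNAs, Nfkb1 and Relb were called lower and Rel higher, while Rela and Nfkb2 did not pass. NF-κB protein and activity were not analysed here. The target list was chosen with earlier results of these data known, and nothing particular to it was tested.

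**Figure D5:**
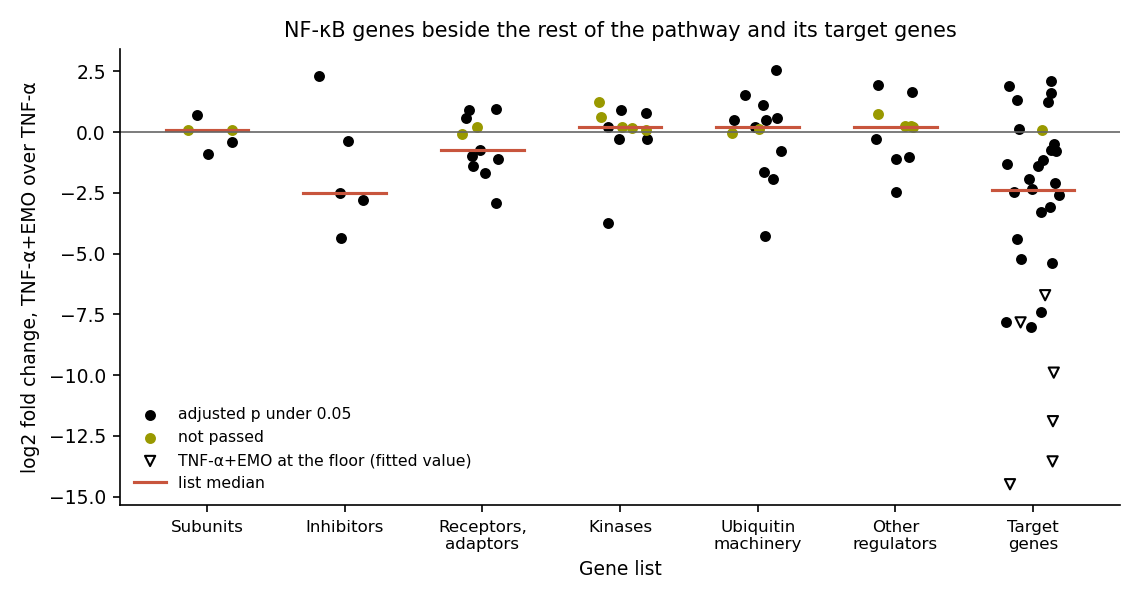
The log2 fold change (TNF-α+EMO over TNF-α) of every tested gene in the subunits, the inhibitors, 4 groups of pathway genes and the target genes, where the red line is the median of each list and open triangles are genes with TNF-α+EMO at the floor of 3 counts. The medians of the inhibitors and of the target genes are -2.52 and -2.41, and those of the other lists lie between -0.75 and 0.23.

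The κB consensus was also counted over the other genes, as a description with no test. Of 27 listed targets with a promoter window, 9 (33.3%) held a match, as did 6 of 36 pathway genes (16.7%). Over all windows, the share was 7.51%. Among tested genes with a window, 48.6% of the 962 with a match were called lower and 34.7% higher with EMO. Among the 8215 without a match, 42.1% were called lower and 41.8% higher. Of the 7 NF-κB genes with a match, Nfkb1, Nfkbia, Nfkbie, Nfkbiz and Tnfaip3 were called lower. Nfkb2 did not pass, and Rel was called higher, a call that rested on single libraries. Whether a match goes with a direction was not tested.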

How the data were processed

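RNA-seq of 6 rat RA-FLS libraries (3 TNF-α, 3 TNF-α+EMO, grouped by the sample labels) was used. The authors prepared poly(A)-selected paired-end libraries and, per the labels' processing notes, used FastQC, Trimmomatic and HISAT2 with the Rnor_6.0 genome. The counting program, strand setting and annotation release are not given in the sources used here. The authors deposited raw counts per gene, and FPKM values that they scaled to gene length and mapped fragments, used here only as an alternative. The table also holds the authors' own comparison (group means, fold changes and p-values), which was not used.

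Genes holding 10 counts or more in 3 or more libraries were tested with edgeR 4.0.16 in R 4.3.3 (TMM scaling, robust quasi-likelihood F test), with Benjamini-Hochberg adjustment. The standard error is the log2 fold change divided by the square root of F. DESeq2 1.42.0 was an alternative. The scripts were tested on simulated data in which far fewer genes changed than were called here, as many up as down. That test cannot show how the scaling does where most genes differ. A fixed floor of 3 counts per library was used, beside totals of 16813322 to 17794455 counts, and it covers counting error only. The study's methods call the libraries biological replicates, but the labels do not say that they are separate cultures, so p-values measure only the spread between these libraries.

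The NF-κB genes and all lists were chosen with earlier results of these data known. The pathway and target genes named were fixed by a written rule, except those said to be named after their values were seen and Nkiras1, and the most similar genes were those closest over the 6 libraries with a pseudocount of 1. Col1a2, Pecam1 and Saa3 of the lists were not analysed here. No other listed gene overlaps an NF-κB gene in the deposited coordinates. Promoter sequences are from RefSeq (GRCr8), whose coordinates are not those of the count table.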

Additional observations from a re-analysis of the deposited data

How the results depend on the processing

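Over 13 alternatives (DESeq2, 3 other scalings, 2 other filters, the replicate block and leaving out each library), Nfkb1, Relb, Nfkbia, Nfkbib, Nfkbie, Nfkbiz and Tnfaip3 kept their direction and call in 13 of 13. Scaling by library totals alone moved the median of all genes by -0.11 on the log2 scale and turned the uncalled values of Rela and Nfkb2 to -0.014 and -0.031. When 1 library was left out, the log2 fold change of Rel ranged from 0.50 to 0.83 and the NF-κB genes called higher numbered 1 to 2. The same-numbered libraries of the groups correlated by -0.00683 to 0.0676 in their deviations, and not every library correlated best with its own number. No pairing by number was visible, but this cannot show whether same-numbered libraries were handled together. With the replicate block, 5266 genes were called higher and 5540 lower, against 5366 and 5642 without it, and 2 NF-κB genes were higher and 6 lower, as without it. The shares of subunits and inhibitors and the order of the levels were the same from the deposited FPKM, but without TNF-α+EMO replicate 1 only 8 of the 10 genes kept their rank of level with EMO, Nfkbib and Rela changing places. Over the 13 alternatives, 4 to 6 target genes were called higher and 23 to 27 lower, and 13 to 17 pathway genes higher and 15 to 18 lower. With 57 to 131 raw counts, Rel is the gene whose depth limits its value most.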
